A study of Mus musculus with 20 samples.

Results

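The genes described here encode the adhesion molecules with which leukocytes attach to a vessel wall. They are Vcam1, Icam1 and Icam2 (ligands of integrins on leukocytes), Sele and Selp (selectins of the vessel wall and of platelets), Selplg (the selectin ligand PSGL-1 of leukocytes), and Itgal, Itgam and Itgb2 (chains of the integrins LFA-1 and Mac-1). The 9 genes were taken by symbol from a count table that holds 52715 distinct gene names. They were chosen by values measured in the CD45+ comparison between the tumours, chiefly the low level of Vcam1 and the high level of Selp in 66cl4. The values of the 9 genes in that comparison are therefore given as a description without a test. The gate comparisons of Vcam1 and Selp use the same CD45+ libraries and are likewise given without a p-value.

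The study sequenced RNA of sorted cells from primary tumours of 10 female BALB/cJ mice aged 8 to 12 weeks. Of these mice, 5 bore a tumour of 66cl4, a line whose tumours spread to the lungs, and 5 bore a tumour of 67NR, a related line whose tumours do not. Both are lines of the 4T1 mammary carcinoma model, each tumour grew from 1000000 cells placed in the mammary fat pad, and the experiments took place 21 to 26 days later. Dissociated tumours were sorted on CD45, a surface protein of leukocytes, into CD45+ (immune) and CD45- cells, which gave 1 library per gate and animal and 4 groups of 5 libraries. The CD45- gate holds every other cell of the tumour, cancer cells, fibroblasts and vessel cells alike, and each tumour type rests on 1 cell line.

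Leukocytes leave the blood in steps. Selectins on activated endothelium bind sugar-bearing ligands such as PSGL-1 and slow the cells, chemokines then switch the leukocyte integrins to their binding state, and the integrins hold to ICAM and VCAM ligands until the cell passes the wall. LFA-1 is a pair of the Itgal and Itgb2 chains and Mac-1 a pair of Itgam and Itgb2, so Itgb2 is the chain they share, whereas Vcam1 is bound by other integrins, of which the pair of Itga4 and Itgb1 is the best known. Vcam1 and Icam1 are not restricted to endothelium: macrophages and stromal cells also make them.

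Total counts ranged from 12960000 to 28080314 per library. A gene at 3 counts or fewer was treated as not detected, a limit that covers counting error only. Levels are normalised counts, that is, estimated counts divided by DESeq2 size factors, and levels of different genes are compared only as TPM, which also divides by transcript length. Ptprc, the gene of CD45, was higher in the CD45+ library of every one of the 10 animals, at least 33.6-fold in 67NR and at least 112-fold in 66cl4. For 66cl4 animals 5 and 6 the title and the recorded cell type name opposite gates. They were placed by title, and each count below was repeated without them. In bulk RNA of this kind, fewer cells of a type and less RNA per cell cannot be told apart.

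Per transcript length, Itgb2 had the highest mean of the 9 genes in 3 of the 4 groups. In 66cl4 CD45+ cells the order of mean TPM was Itgb2 (393), Itgam (357), Selplg (172), Itgal (49.8), Icam1 (44.5), Icam2 (24.8), Vcam1 (3.88), Selp (3.40) and Sele (0.377). The libraries of Itgb2 and Itgam overlapped in that order, as did those of Itgal, Icam1 and Icam2 and those of Vcam1 and Selp. In 67NR CD45+ cells Itgb2 (222 TPM) came first by mean, and its libraries overlapped those of Selplg (184). Vcam1 had 52.1 TPM there, which placed it between Itgal (66.0) and Icam1 (33.9), and its libraries overlapped both. In 66cl4 CD45- cells Itgb2 (104 TPM) stood apart from Vcam1 (9.81), and Vcam1 from Icam1 (2.41). The 6 genes that followed Icam1 ran from 2.02 to 0.0507 TPM, each overlapping the next. In 67NR CD45- cells Vcam1 (14.2 TPM) came first, apart from Itgb2 (6.85), whereas Icam2 (6.46) overlapped both.

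**Figure D1:**
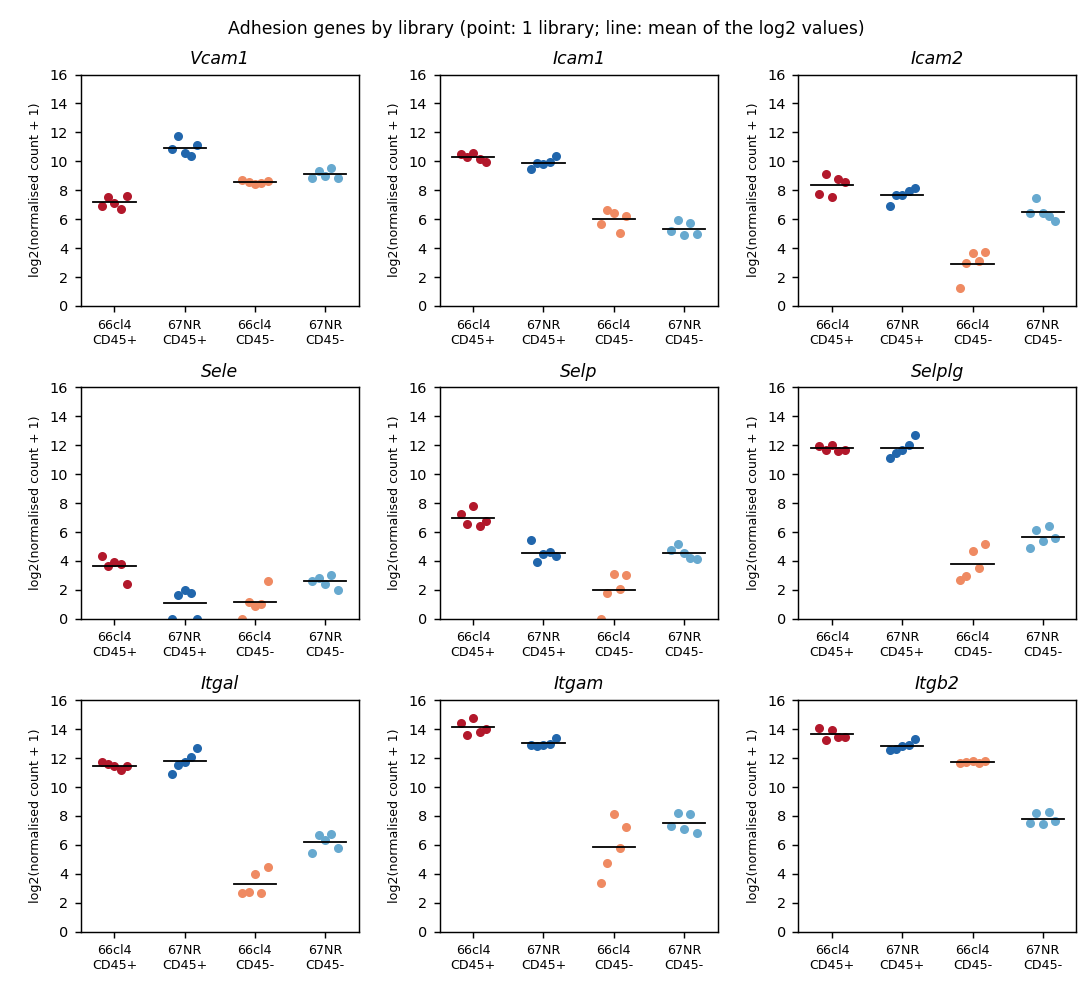
Levels of the 9 adhesion genes in 20 libraries. Each panel is 1 gene, the vertical axis is log2(normalised count + 1), each point is 1 library and the line is the mean of the 5 log2 values of a group. Itgb2 in 66cl4 CD45- cells (3204 to 3647 normalised counts) lies far above its 67NR CD45- points (176 to 313), and Vcam1 is the only panel in which 67NR CD45+ cells are highest and apart from the other 3 groups.

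The first tested question was whether the CD45- cells of the 2 tumours differed. Of the 9 genes, 8 passed the filter on low counts. Itgb2 was called higher in 66cl4 CD45- cells, and Icam2, Itgal, Selp and Selplg were called lower, with a call meaning an adjusted p under 0.05 and an absolute log2 difference over 1 in edgeR's quasi-likelihood test. That is 5 of 8, against 32.2% of all 14844 genes tested, with 13.2% called higher and 18.9% called lower. The median log2 difference of the 8 genes was -1.28 and that of all genes tested -0.0094. Libraries of the 2 tumours did not overlap for 5 of the 9 genes (Vcam1, Icam2, Selp, Itgal and Itgb2), against 52.9% of all genes tested, so that count by itself sets the genes little apart.

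The second question was how the 2 gates of the same tumour differed. Without Vcam1 and Selp, 6 genes were tested (Icam1, Icam2, Selplg, Itgal, Itgam and Itgb2). All 6 were called higher in CD45+ cells in both tumours. Of all genes tested, 44.4% were called between the gates of 66cl4, 23.9% higher and 20.5% lower in CD45+ cells, and 39.8% between those of 67NR, 20.2% higher and 19.6% lower. With Vcam1 and Selp included as a description, the median log2 difference of the 8 genes was 5.16 in 66cl4 and 4.77 in 67NR, beside 0.0032 and -0.049 over all genes tested. Libraries of the gates did not overlap for 8 of the 9 genes in 66cl4, all but Sele, and for 7 in 67NR, all but Icam2 and Selp, against 61.4% and 55.5% of all genes tested. Sele, counted among the 7, was under the filter and so not among the genes tested. Its nearest libraries in 67NR, CD45- of animal 7 (3.07) and CD45+ of animal 5 (3.05), held 3 counts each, at the detection limit.

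**Figure D2:**
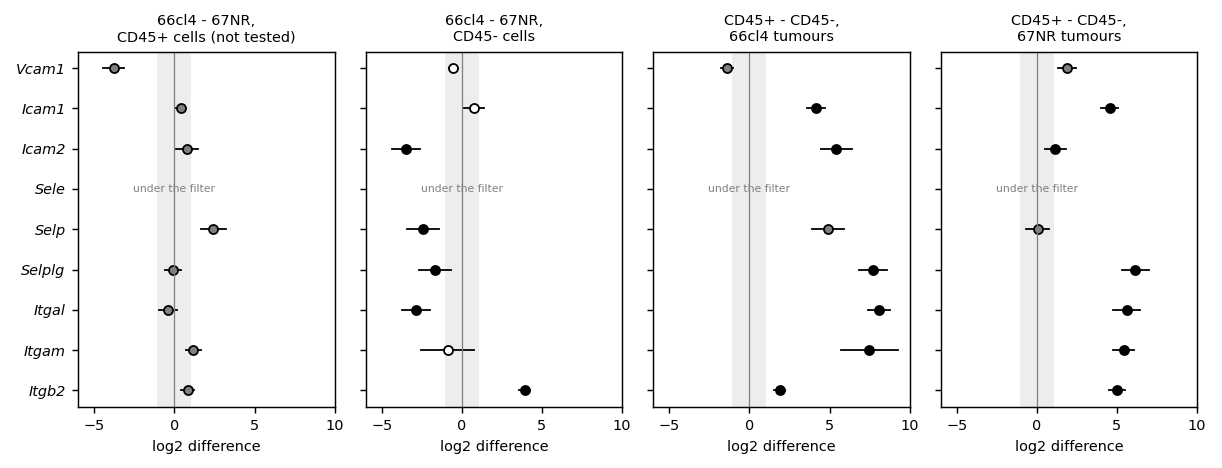
Log2 differences of the 9 genes from edgeR in the 4 comparisons named above the panels. Points are estimates and lines are 95% confidence intervals, with filled points called, open points not called, grey points given as a description without a test (all genes in the first panel, Vcam1 and Selp between the gates), and the shaded band marking absolute values up to 1. Itgb2 stands at 3.92 between the CD45- groups, and Vcam1 stands at -1.38 and 1.89 between the gates of 66cl4 and 67NR tumours.

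Vcam1 (ENSMUSG00000027962), the endothelial and macrophage ligand of the Itga4 integrins, changed sides between the gates of the 2 tumours. In 66cl4 CD45+ cells its normalised counts were 121, 184, 137, 103 and 194, with a mean of 148 ± 39.8 (SD, n = 5). In 66cl4 CD45- cells they were 422, 382, 352, 358 and 389, with a mean of 381 ± 27.9 (SD, n = 5). Every CD45- library of this tumour was thus above every CD45+ library, and the CD45- level was the higher in 5 of 5 animals. The log2 difference, CD45+ minus CD45-, was -1.38 (SE 0.176).

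In 67NR CD45+ cells the normalised counts of Vcam1 were 1889, 3389, 1514, 1334 and 2282, with a mean of 2081 ± 817 (SD, n = 5). In 67NR CD45- cells they were 462, 658, 494, 736 and 466, with a mean of 563 ± 126 (SD, n = 5). Here every CD45+ library was above every CD45- library, and the ratio within an animal ran from 1.81 to 5.15. The log2 difference was 1.89 (SE 0.257), higher in CD45+ cells in 5 of 5 animals. Whether the gate effect differs between the tumours was not tested, because that difference contains the CD45+ contrast from which the gene was chosen.

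Between tumours, the CD45- cells held less Vcam1 in 66cl4, with a log2 difference of -0.53 (SE 0.131, 95% interval -0.82 to -0.25, edgeR adjusted p = 0.00253). The libraries did not overlap, but the difference stayed under the fold threshold. In CD45+ cells the described difference was -3.80 (SE 0.293) and the libraries did not overlap. Summed macrophage markers were also lower in 66cl4 CD45+ cells (49457 to 76411 normalised counts over 8 genes, against 76727 to 117539 in 67NR). Of the 8 macrophage markers Adgre1 alone was called lower, with means of 3022 and 6587, whereas Cd68 (8166 and 6568) and Mertk (546 and 299) were higher in mean and Mrc1 was at 21861 and 21745. Among other lists, 4 of 4 NK cell markers, 3 of 6 monocyte markers and 4 of 8 fibroblast markers were called lower in 66cl4 CD45+ cells, against 6.82% of all genes. Fibroblast markers summed to 182 to 1398 normalised counts there and to 899 to 3761 in 67NR. The part of these cells in the level of Vcam1 was not tested.

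Because cells of the vessel wall and stroma also carry Vcam1, their markers were measured in the CD45+ gate. In 67NR tumours the mean CD45+ level of endothelial markers was at a median of 12% of their CD45- level, that of fibroblast markers at 11% and that of pericyte markers at 7.90%. Vcam1 in the same tumours was 3.69-fold higher in CD45+ cells. In 66cl4 tumours the same medians were 20.9%, 7.75% and 10.8%, and Vcam1 in CD45+ cells stood at 0.389 of its CD45- level. The medians cover markers with a mean of at least 10 normalised counts in CD45- cells, which left only 3 endothelial markers in 66cl4. Single markers at or above that mean ranged widely. They reached 106% (Kdr) among endothelial and 46.9% among fibroblast markers in 67NR, and 403% and 122% in 66cl4. The endothelial marker Vwf, under that mean in CD45- cells (8.81 in 67NR and 4.53 in 66cl4), stood at 532% in 67NR and 849% in 66cl4. The part of vessel and stromal cells in the CD45+ level of Vcam1 was not tested.

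The chains that bind Vcam1 were not called between the CD45+ groups. Itga4 averaged 7216 normalised counts (66cl4) and 6401 (67NR), a log2 difference of 0.19 (95% interval -0.16 to 0.53, edgeR adjusted p = 0.442). Itgb1 averaged 6912 and 6428, a log2 difference of 0.12 (95% interval -0.15 to 0.39, edgeR adjusted p = 0.543). The genes with the profile nearest to that of Vcam1 over the 20 libraries were Pdgfc, Rab27b and Ifit2. The root mean square difference of their centred log2 profiles was 0.734, 0.750 and 0.810, chosen among 12092 genes. Ifit2, an interferon-induced gene, had means of 364, 1732, 295 and 579 normalised counts in 66cl4 CD45+, 67NR CD45+, 66cl4 CD45- and 67NR CD45- cells.

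Icam1 (ENSMUSG00000037405), the main ligand of LFA-1 and Mac-1, was mainly a gene of CD45+ cells in both tumours. Its normalised counts in 66cl4 were 1420, 1276, 1506, 1125 and 1004 in the CD45+ gate, and 50.4, 96.6, 84.9, 31.9 and 73.9 in the CD45- gate. In 67NR they were 715, 941, 899, 995 and 1319 in the CD45+ gate, and 35.1, 60.8, 29, 52.3 and 30.7 in the CD45- gate. The gates did not overlap in either tumour, while the tumours overlapped in both gates. The gate difference was 4.17 on the log2 scale in 66cl4 (SE 0.257, edgeR adjusted p = 2.63e-08) and 4.53 in 67NR (SE 0.236, edgeR adjusted p = 2.63e-08).

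Between tumours Icam1 in CD45- cells was 1.62-fold higher in 66cl4 (log2 0.74, SE 0.302, edgeR adjusted p = 0.0428), under the fold threshold and with overlapping libraries. The exact permutation test of the means gave p = 0.103 (two-sided, 252 splits). In CD45+ cells the described log2 difference was 0.40 (SE 0.152). On the chromosome Icam4 and Icam5, ligands of the same integrin family, follow Icam1 in the RefSeq order, and their means stayed between 0.20 and 11.2 normalised counts in every group.

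Icam2 (ENSMUSG00000001029), a ligand of LFA-1 that endothelium carries without stimulation, and which leukocytes and platelets also carry, was near the detection limit in 66cl4 CD45- cells. There its normalised counts were 1.33, 6.86, 11.7, 7.44 and 12, with a mean of 7.85 ± 4.34 (SD, n = 5). In 67NR CD45- cells they were 86.0, 174, 83.4, 72.7 and 56.2, with a mean of 94.5 ± 46.0 (SD, n = 5). No library of either tumour reached into the range of the other, and the difference was -3.50 on the log2 scale (SE 0.402, edgeR adjusted p = 3.63e-06), a 12-fold lower mean in 66cl4.

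Among CD45+ libraries Icam2 ran from 184 to 558 (66cl4) and from 119 to 288 (67NR) normalised counts, so the tumours overlapped, with a described log2 difference of 0.77 (SE 0.312). The gates of 66cl4 were far apart (log2 5.41, SE 0.438, edgeR adjusted p = 3.58e-07) and those of 67NR close (log2 1.16, SE 0.303, edgeR adjusted p = 0.00522), with overlapping libraries in 67NR. Pecam1, the endothelial junction protein whose gene lies near Icam2, had a like order in CD45- cells, with a mean of 76.0 in 66cl4 and 794 in 67NR (log2 -3.33, SE 0.444, edgeR adjusted p = 8.57e-05).

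Endothelial markers fell in the same CD45- cells. Of 9 tested, 8 were called lower in 66cl4 (Cldn5, Egfl7, Emcn, Erg, Kdr, Robo4, Tek and Tie1), against 18.9% of all genes, with a list median of -3.38 against -0.0094 over all genes. The 10 endothelial markers summed to 500 to 953 normalised counts there, against 806 to 3225 in 67NR, and none of the 10 was at 0. Cdh5 made up most of the sum, with means of 557 and 892, and was not called (log2 -0.65, SE 0.316, edgeR adjusted p = 0.0942). How much of the fall of Icam2 and Selp follows the number of endothelial cells was not tested.

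Sele and Selp were the rarest of the 9 genes. They lie close together on mouse chromosome 1. The 250 bases before the start sites of these 2 vessel-wall selectins are shown. With them are those of Itgam, the integrin chain for which the RefSeq promoter table also holds a sequence. The table (build GRCm38.p6) held 4 of the 9 genes, the fourth being Icam1. Capitals mark the PU.1 core GAGGAA, the AP-1 motif TGANTCA and the interferon response motif GAAANNGAA, searched on both strands together with the NF-kB consensus.
Sele: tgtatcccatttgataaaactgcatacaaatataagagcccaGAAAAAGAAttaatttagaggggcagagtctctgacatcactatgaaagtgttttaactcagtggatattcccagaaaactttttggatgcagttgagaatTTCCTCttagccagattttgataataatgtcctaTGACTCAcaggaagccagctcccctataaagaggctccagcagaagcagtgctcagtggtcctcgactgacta
Selp: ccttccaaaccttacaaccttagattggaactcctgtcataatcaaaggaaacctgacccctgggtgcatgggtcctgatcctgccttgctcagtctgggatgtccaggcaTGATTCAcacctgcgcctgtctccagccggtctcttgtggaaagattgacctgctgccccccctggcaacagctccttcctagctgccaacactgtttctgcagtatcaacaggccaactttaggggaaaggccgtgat
Itgam: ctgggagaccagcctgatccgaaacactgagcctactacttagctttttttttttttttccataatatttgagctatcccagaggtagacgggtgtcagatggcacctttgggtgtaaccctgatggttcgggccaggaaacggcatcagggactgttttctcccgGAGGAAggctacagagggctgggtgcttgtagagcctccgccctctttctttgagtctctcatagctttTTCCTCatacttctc
The windows are chr1:164047984-164048233 for Sele, chr1:164115014-164115263 for Selp and chr7:128062390-128062639 for Itgam, all on the plus strand and all ending at the base before the start site. The AP-1 motif stood in Sele (bases -73 to -67 from the start site) and Selp (-139 to -133), and in 6.87% of all 27025 promoters over the same window. The PU.1 core, which binds a myeloid factor, stood at 2 places in Itgam (-84 to -79 and -15 to -10) and at 1 in Sele, and in 23.1% of all promoters. The interferon response motif stood in Sele and in 7.16% of promoters. The NF-kB consensus, searched as a pattern that opens with GGG, matched none of the 4 windows and 3.75% of all promoters. NF-kB sites that depart from this pattern at any base, such as the known one of Icam1, were not searched. The search therefore does not show that a window lacks an NF-kB site. No motif overlapped another. A match shows letters and not binding.

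Selp (ENSMUSG00000026580), the P-selectin of activated endothelium and platelets, was highest in 66cl4 CD45+ cells and lowest in 66cl4 CD45- cells. In the CD45+ gate its normalised counts were 152, 92.7, 220, 85.2 and 106 for 66cl4, against 43.7, 14.3, 21.3, 24 and 19.5 for 67NR. Those groups did not overlap, and the mean was 5.34-fold higher in 66cl4 (described log2 difference 2.44, SE 0.355). In the CD45- gate they were 0, 2.49, 7.49, 3.19 and 6.99 for 66cl4, against 25.4, 34.5, 22.8, 17.2 and 16.4 for 67NR.

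The CD45- groups did not overlap either, and here the mean in 66cl4 was 5.77-fold lower (log2 -2.43, SE 0.465, edgeR adjusted p = 0.000369). The counts behind the low group were 0 to 9 per library. Selp was 32.5-fold higher in the CD45+ than in the CD45- cells of 66cl4 (described log2 difference 4.90, SE 0.467). In 67NR tumours the gates overlapped, with a described log2 difference of 0.05 (SE 0.334, 95% interval -0.68 to 0.78), and CD45+ was the higher in 3 of 5 animals. The interval lies inside the fold threshold.

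Markers of the cells known for P-selectin were measured beside it. In 66cl4 CD45+ cells the platelet glycoprotein gene Gp1bb was at 0, and Gp5 and Gp9 were at 3 counts or fewer in every library. In 67NR CD45+ cells Gp1bb, Gp5, Gp6 and Gp9 were at 3 counts or fewer. The summed platelet list was nevertheless high (4738 to 11931 normalised counts for 66cl4, 2892 to 6544 for 67NR), and nearly all of it was Pf4, which macrophages also make (means 7307 and 3729). Other platelet genes were detected, Ppbp with means of 527 in 66cl4 and 380 in 67NR, Itga2b with 9.27 and 18.7, and Gp1ba with 3.68 and 34.7. The last pair were thus lower in mean in 66cl4, where Selp was higher. Endothelial markers in the same gate summed to 175 to 307 for 66cl4 and to 338 to 590 for 67NR. Most of that gap was Kdr (means 59.4 and 215), while Cdh5 (112 and 116) and Vwf (38.5 and 46.8) had like means. The part of platelets and endothelial cells in the level of Selp was not tested.

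Neutrophil markers were mostly higher in 66cl4 CD45+ cells, with overlapping sums of 44355 to 125374 (66cl4) and 7225 to 52470 (67NR) normalised counts. Of the 9 tested, 5 were called higher in 66cl4, against 5.01% of all genes. The largest terms of the sum were S100a9 (means 47089 and 11704) and S100a8 (24652 and 5861). The granule genes Camp (3.68 and 10.6), Ngp (41.8 and 62.3) and Ltf (39.9 and 41.3) were not higher in mean in 66cl4. The part of neutrophils in the level of Selp was not tested. The profiles nearest to that of Selp over the 20 libraries were those of Ank2, Arrdc4 and Cxcr2 (root mean square difference 0.804, 0.806 and 0.810 among 12092 genes), and Cxcr2 is itself on the neutrophil list.

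Sele (ENSMUSG00000026582), the E-selectin of activated endothelium, was under the filter in every comparison. In the CD45+ gate its counts per library were 14, 12, 15, 12 and 5 for 66cl4 and 0, 2, 3, 2 and 0 for 67NR, so every 67NR library was at or under the limit of 3. In the CD45- gate they were 0, 2, 1, 1 and 5 for 66cl4 and 6, 8, 5, 9 and 3 for 67NR. As for Selp, 66cl4 CD45+ cells had the highest mean. Unlike Selp, 67NR CD45+ cells (mean 1.53 normalised counts) were as low as 66cl4 CD45- cells (1.63), and 67NR CD45- cells were above 67NR CD45+ cells in 5 of 5 animals. Two-sided exact permutation tests of the mean normalised counts gave p = 0.00794 for the gates of 67NR, the smallest value that 252 splits allow, p = 0.0159 for those of 66cl4 and p = 0.0238 for the CD45- cells. Adjusted over these 3 exact tests alone, and not over all genes tested, each p was 0.0238. The gate tests shuffled single libraries and ignored that the gates of an animal are paired. They also use the CD45+ libraries of the comparison from which the genes were chosen. For these reasons they may overstate the evidence. In 66cl4, CD45+ was the higher gate in 4 of 5 animals. No fold is given at these counts.

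**Figure D3:**
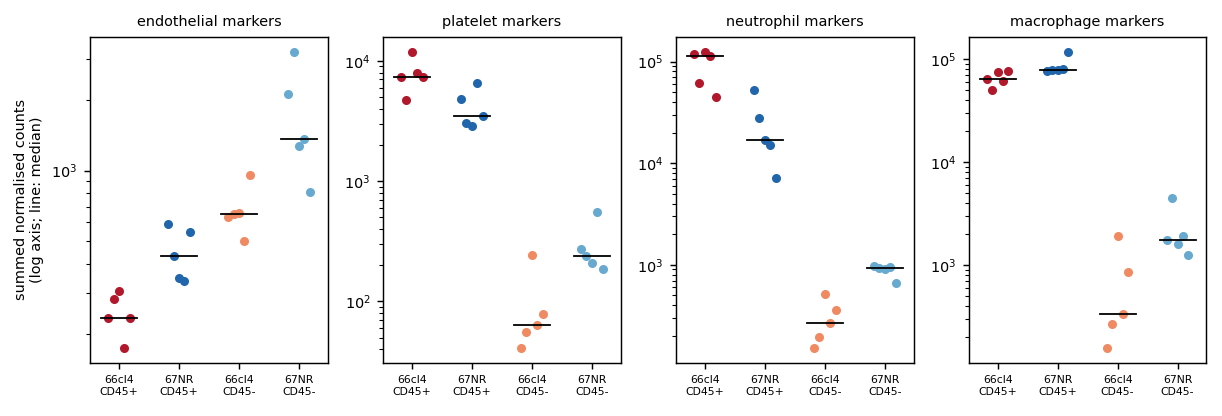
Summed normalised counts of 4 marker lists in the 20 libraries, on log axes, with 1 point per library and a line at the median of each group. Endothelial sums are lower in 66cl4 than in 67NR CD45+ cells (175 to 307 against 338 to 590), whereas neutrophil sums are mostly higher (44355 to 125374 against 7225 to 52470).

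Selplg (ENSMUSG00000048163), the PSGL-1 that selectins bind, was high in the CD45+ cells of both tumours. Its normalised counts in that gate were 3982, 3322, 4057, 3140 and 3339 for 66cl4, against 2216, 2848, 3245, 4048 and 6724 for 67NR. The groups overlapped, and the described log2 difference was -0.07 (SE 0.232, 95% interval -0.57 to 0.44). Without animal 7 of 67NR, the highest library, it was 0.20. In CD45- cells Selplg fell to a mean of 16.5 ± 12.9 (SD, n = 5) in 66cl4 and 53.9 ± 22.1 (SD, n = 5) in 67NR, with overlapping libraries and a log2 difference of -1.67 (SE 0.461, edgeR adjusted p = 0.00585).

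Ptprc fell between the same CD45- groups, from 145 to 473 normalised counts in 67NR to 10.6 to 161 in 66cl4 (log2 -1.79, SE 0.658, edgeR adjusted p = 0.0361). The libraries of 66cl4 with the most Ptprc, those of animals 5 and 7, were also those with the most Selplg (25 and 34.9, against 5.31 to 10.6 in the others), Itgal and Itgam. How many leukocytes passed into the CD45- gate, and what part they have in the fall of Selplg and Itgal, was not tested.

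The enzymes and other ligands of the selectin system were less uniform. Of 17 such genes, 15 were tested between the CD45+ groups, where Cd24a, Cd44 and Gcnt1 were among those called higher in 66cl4 and Chst2 was called lower, against 5.01% higher and 6.82% lower over all genes. Cd44, a hyaluronan receptor that can also carry selectin ligands, had means of 28032 in 66cl4 and 10832 in 67NR (log2 1.38, SE 0.208, edgeR adjusted p = 0.000922). Chst2, a sulfotransferase of selectin ligands, had 24.1 and 122 (log2 -2.30, SE 0.245, edgeR adjusted p = 0.000135). The list median was 0.02, beside 0.0097 over all genes.

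In CD45- cells 2 of 14 were called higher in 66cl4 and 4 lower, near the 13.2% and 18.9% of all genes, with a list median of -0.46. Cd24a, a small surface protein that can bind P-selectin, was 46.1-fold higher in 66cl4 (means 4423 and 95.9, log2 5.55, SE 0.281, edgeR adjusted p = 6.78e-09). Podxl, a sialomucin of endothelium and epithelium, was 7.61-fold lower (means 15.9 and 121, log2 -2.90, SE 0.424, edgeR adjusted p = 5.29e-05). Between the gates 6 of 15 were called higher in CD45+ cells of 66cl4 and 7 of 15 in those of 67NR, with 1 lower in each, against 23.9% and 20.2% of all genes called higher. Gcnt1 was 278-fold higher in 66cl4 and St3gal6 40.7-fold higher in 67NR, both enzymes that build the sugars of selectin ligands.

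Among the integrin chains, Itgal (ENSMUSG00000030830) and Itgam (ENSMUSG00000030786) were confined almost wholly to CD45+ cells, and Itgb2 (ENSMUSG00000000290) was not. In 66cl4 CD45- cells the normalised counts of Itgb2 were 3204, 3423, 3646, 3251 and 3647, with a mean of 3434 ± 210 (SD, n = 5). In 67NR CD45- cells they were 181, 288, 176, 313 and 201, with a mean of 232 ± 64.2 (SD, n = 5). The 2 groups lay far apart, and the libraries of 66cl4 hardly differed among themselves. The mean of Itgb2 was 14.8-fold higher in 66cl4 (log2 3.92, SE 0.161, 95% interval 3.57 to 4.26, edgeR adjusted p = 1.01e-10), and the log2 difference stayed between 3.83 and 4.05 when each library was left out. Epithelial markers were also higher in sum in the same libraries, 6057 to 6844 normalised counts against 125 to 391. Nearly all of that was Krt8 (means 5353 and 61.6) and Krt18 (1149 and 58.6), keratins of simple epithelia, while Epcam was called lower (12.1 and 32.8). Their part in the level of Itgb2 was not tested.

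The partner chains were not called higher with it. Itgal in CD45- cells was 5.31, 5.61, 15, 5.31 and 21 in 66cl4 and 43, 102, 79.9, 109 and 54.2 in 67NR, 7.45-fold lower in 66cl4 with no overlap (log2 -2.85, SE 0.405, edgeR adjusted p = 2.76e-05). Itgam was 9.29, 25.6, 276, 53.1 and 148 in 66cl4 and 155, 297, 133, 277 and 110 in 67NR CD45- cells. The libraries of Itgam overlapped widely, and it was not called (log2 -0.89, SE 0.739, 95% interval -2.56 to 0.78, edgeR adjusted p = 0.313). Without animal 5 of 66cl4 the difference was -1.68 (edgeR adjusted p = 0.0488) and was called.

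In TPM, the ratio of Itgal to Itgb2 was 0.130 ± 0.0297 in 66cl4 CD45+, 0.282 ± 0.0718 in 67NR CD45+ and 0.189 ± 0.0482 in 67NR CD45- cells, and 0.00168 ± 0.00108 in 66cl4 CD45- cells (SD, n = 5 each). The ratio of Itgam to Itgb2 was 0.898 ± 0.152, 0.716 ± 0.0592 and 0.518 ± 0.113 in the first 3 groups and 0.0181 ± 0.0190 in 66cl4 CD45- cells. In 3 of the 4 groups the chains thus kept ratios of a like order, and in 66cl4 CD45- cells Itgb2 was present with little of either partner. Other partners of Itgb2 were also low there: Itgax had a mean of 4.10 normalised counts and Itgad was at 0 in every library.

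The CD45- level can be set against the CD45+ level of the same tumour. In 66cl4 the mean CD45- level was 0.385% of the CD45+ level for Ptprc, 0.361% for Itgal, 0.545% for Itgam and 0.464% for Selplg, and 26.3% for Itgb2. Over 5 animals the share of Itgb2 ran from 18.5 to 34.4%, and no animal exceeded 1.05% for any of the other 4 genes. In 67NR the share was 1.22% for Ptprc, 2.02% for Itgal, 2.33% for Itgam, 1.41% for Selplg and 3.10% for Itgb2. Among the 45 leukocyte markers of 7 lists with a mean of at least 50 normalised counts in 66cl4 CD45+ cells, the median share was 0.646%, and 1 gene, Eomes, stood above Itgb2. Across the 66cl4 CD45- libraries Ptprc varied 15.1-fold and Itgam 29.7-fold, and Itgb2 varied 1.1-fold.

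**Figure D4:**
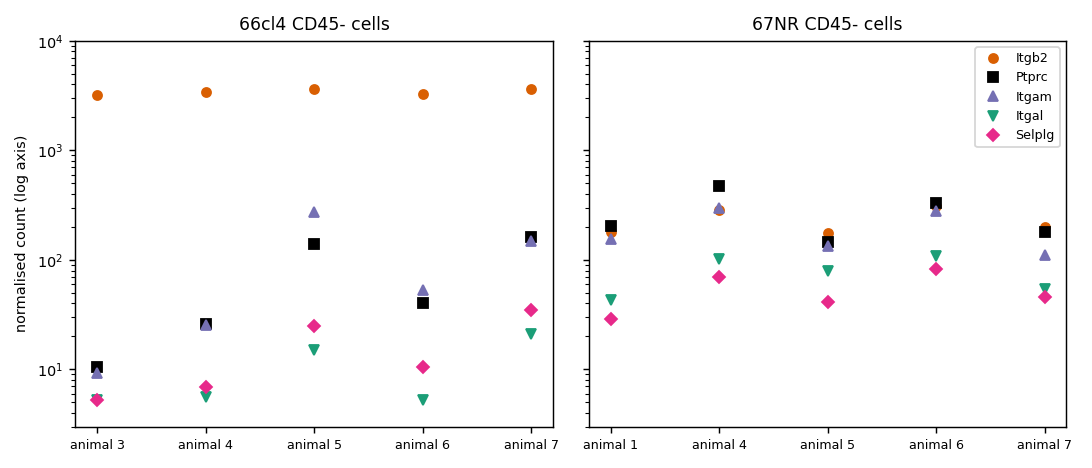
Normalised counts of Itgb2, Ptprc, Itgam, Itgal and Selplg in the CD45- library of each animal, on a log axis, with 66cl4 tumours left and 67NR tumours right. In 66cl4 the 5 Itgb2 points form a level row (3204 to 3647) while Ptprc runs from 10.6 to 161, and in 67NR the Itgb2 points (176 to 313) lie near those of Ptprc (145 to 473).

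**Figure D5:**
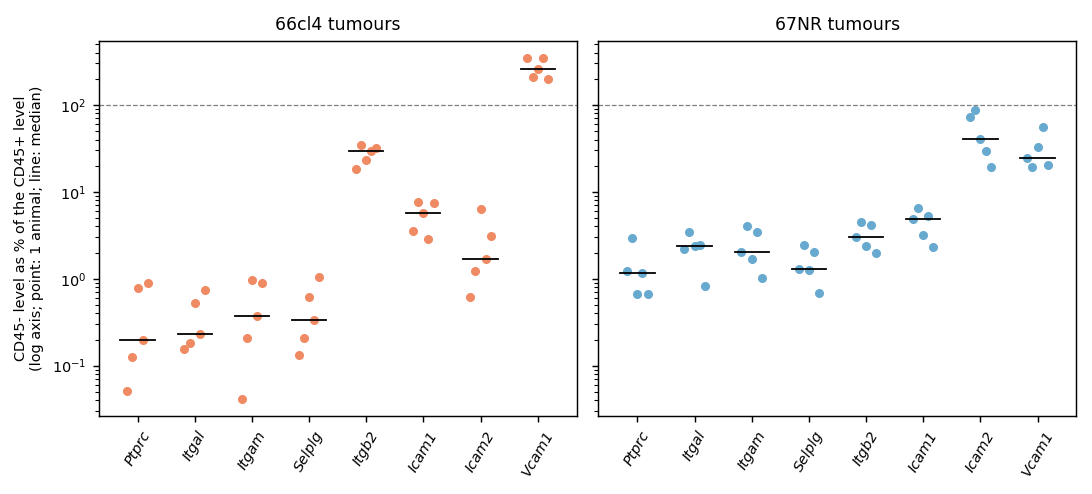
CD45- level as a percentage of the CD45+ level of the same animal, on a log axis, with 1 point per animal and a line at the median. Ptprc, Itgal, Itgam and Selplg lie near or below 1% in 66cl4, Itgb2 at 18.5 to 34.4%, and Vcam1 above 100% in 66cl4 and below it in 67NR. Sele and Selp are left out because some of their libraries are at 0.

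None of the measured genes beside Itgb2 on its chromosome was called between the CD45- groups. Fam207a had a log2 difference of -0.18 (edgeR adjusted p = 0.228), Pttg1ip 0.07 (0.423 by the same adjustment), Sumo3 -0.12 (0.452) and Ube2g2 0.41 (0.00412). Adarb1 was lower in 66cl4, at -0.91 (edgeR adjusted p = 0.000174), just under the fold threshold. These neighbours, by RefSeq order, were looked up after the values of Itgb2 were seen. The genes with the nearest profile over the 20 libraries were Pctp, Fmnl1 and Gch1 (root mean square difference 0.378, 0.441 and 0.445 among 12092 genes). Fmnl1, a formin of blood cells, had means of 4725, 2513, 1619 and 52.1 normalised counts in 66cl4 CD45+, 67NR CD45+, 66cl4 CD45- and 67NR CD45- cells.

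In CD45+ cells the 3 chains differed less between the tumours, in values that are again a description. Itgam was 22374, 12120, 28403, 14293 and 16620 in 66cl4 and 7639, 7302, 7804, 8137 and 10947 in 67NR, without overlap and with a described log2 difference of 1.18 (SE 0.216). Itgb2 ran from 9956 to 17288 in 66cl4 and from 5948 to 10126 in 67NR (0.82, SE 0.181), and Itgal from 2309 to 3417 and from 1942 to 6593 (-0.38, SE 0.251), with overlap in both. Libraries of the 2 tumours did not overlap for 4 of the 9 genes in CD45+ cells (Vcam1, Sele, Selp and Itgam), beside 15.1% of all 14676 genes tested, from which nothing is read because this contrast chose the genes. The neutrophil markers given above, of cells known for Mac-1, were mostly higher in the same 66cl4 libraries, and their part in the level of Itgam was not tested.

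Between the gates, Itgal was 277-fold higher in CD45+ cells of 66cl4 (log2 8.07, SE 0.311, edgeR adjusted p = 1.41e-09) and 49.5-fold in those of 67NR (5.61, SE 0.382). Itgam was 183-fold higher in 66cl4 (7.47, SE 0.815, edgeR adjusted p = 5.08e-06), or 8.31 on the log2 scale without animal 5 in CD45- cells, and 43.0-fold in 67NR (5.42, SE 0.303). Selplg was 216-fold and 70.8-fold higher (7.71, SE 0.388, and 6.12, SE 0.384). Itgb2 was 3.81-fold higher in 66cl4 (1.90, SE 0.154, edgeR adjusted p = 2.43e-07) and 32.3-fold in 67NR (5.01, SE 0.219). All of these groups were free of overlap, and for each gene CD45+ was the higher in 5 of 5 animals of each tumour.

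Beside the 9 genes, the other integrin chains and the proteins that activate integrins followed the gate. Of 6 other leukocyte integrin chains tested, 5 were called higher in CD45+ cells in each tumour, and Itgb1, which most cells carry, was not called in either, against 23.9% of all genes called higher in 66cl4 and 20.2% in 67NR. Itgax, the chain of CD11c, was 283-fold higher in 66cl4 and 48.6-fold in 67NR, and Itga4 113-fold and 31.8-fold. All 12 genes of integrin activation were called higher in CD45+ cells of both tumours, with list medians of 3.19 in 66cl4 and 2.44 in 67NR, beside 0.0032 and -0.049 over all genes. Fermt3, the kindlin of blood cells, was 49.0-fold higher in 67NR, and Skap1, an adaptor of T cells, 74.3-fold. In 66cl4 the largest were Fyb (209-fold) and Vav1 (211-fold), both signalling proteins of leukocytes.

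Between the CD45- groups about as many of these genes were called lower as were not called. Of 6 other integrin chains, Itga4, Itga9, Itgax and Itgb7 were called lower in 66cl4 and none higher (1 higher, Itgb1, at an unadjusted p under 0.05, and 0 by DESeq2), with a list median of -1.66, and 18.9% of all genes were called lower. Itgb1 had means of 8686 in 66cl4 and 6607 in 67NR. Of 11 genes of integrin activation tested, 5 were called lower and none higher (2 higher, Skap2 and Tln1, at an unadjusted p under 0.05, and 0 by DESeq2), with a median of -0.47. Skap2 had means of 1066 and 660, and Tln1 2163 and 1873. The largest change was that of Fyb (22.6 in 66cl4 and 361 in 67NR on average, log2 -3.94, SE 0.432, edgeR adjusted p = 1.00e-05). The gene of the shared chain, Itgb2, went against 4 other integrin chains in the same libraries. Between the CD45+ groups, edgeR called 1 of the 12 activation genes (Cyth1, 2.51-fold higher in 66cl4) and none of the 6 chains. Of all genes, 5.01% were called higher and 6.82% lower there. At an unadjusted p under 0.05, 5 activation genes were higher (Apbb1ip, Cyth1, Rap1b, Rasgrp2 and Tln1) and 0 lower. Of the chains, 1 (Itgb7) was higher at an unadjusted p under 0.05. DESeq2 called 1 chain, Itgad, which was under the filter of edgeR's test.

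Other ligands and junction proteins of the vessel wall gave few genes to test. Of 6 further ligands only Alcam and Cd34 passed the filter, and they moved in opposite directions in all 4 comparisons. Alcam, an adhesion molecule of the immunoglobulin family, was higher in 66cl4, 4.00-fold in CD45+ and 6.94-fold in CD45- cells (edgeR adjusted p = 6.14e-05 and 1.27e-10). Cd34, a sialomucin of endothelium and of some fibroblasts, was lower, 5.40-fold and 5.14-fold (edgeR adjusted p = 0.00141 and 1.86e-09).

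Of the junction proteins through which leukocytes pass, Esam, Jam2 and Pecam1 were called lower in 66cl4 CD45- cells and F11r higher, among 5 tested (18.9% and 13.2% of all genes), with a list median of -2.92. Esam, an endothelial junction protein, had means of 9.09 and 86.0 (log2 -3.13, SE 0.445, edgeR adjusted p = 3.23e-05). Jam2 went the other way in CD45+ cells, with means of 205 in 66cl4 and 36.5 in 67NR (log2 2.50, SE 0.342, edgeR adjusted p = 0.000546). It was the only one of 4 called there, and the direction of Jam2, lower in CD45- and higher in CD45+ cells of 66cl4, was that of Selp.

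Cytokines that induce Vcam1, Icam1 and the selectins in endothelium were measured with their receptors and NF-kB genes. Of 15 tested in CD45+ cells, Il1a and Il1b were called higher in 66cl4 and Il1r1 lower, against 5.01% and 6.82% of all genes, with a list median of 0.34. Il1a had means of 1084 in 66cl4 and 159 in 67NR (log2 2.77, SE 0.390, edgeR adjusted p = 0.000888). In CD45- cells Tnfaip3, an inhibitor of NF-kB signalling that is also its target, was 5.85-fold higher in 66cl4 (log2 2.58, SE 0.246, edgeR adjusted p = 2.18e-06). Il1r1, the receptor of interleukin-1, was 2.99-fold lower (log2 -1.55, SE 0.113, edgeR adjusted p = 3.37e-08), and Tnf was also called lower, with 14 genes tested and a list median of 0.15. With 1 of 14 called higher and 2 lower, against 13.2% and 18.9% of all genes, these counts do not set the list apart. Between the gates 9 of 15 were called higher in CD45+ cells of 66cl4 and 7 of 15 in those of 67NR, against 23.9% and 20.2% of all genes. Il1r1 was called lower in both tumours and Nfkb2 in 66cl4. Il1b led with 486-fold and 92.9-fold, and Tnf followed with 165-fold and 31.9-fold.

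The difference between the 2 tumour effects, CD45+ minus CD45-, is given as a description because it contains the contrast that chose the genes. On the log2 scale it was 4.88 (SE 0.599) for Selp, 4.27 (SE 0.558) for Icam2, 2.46 (SE 0.508) for Itgal, 2.08 (SE 0.738) for Itgam and 1.60 (SE 0.531) for Selplg. It was -0.35 (SE 0.345) for Icam1, -3.10 (SE 0.260) for Itgb2 and -3.25 (SE 0.322) for Vcam1. Vcam1 and Itgb2 thus had the most negative values.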

How the data were processed

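RNA of sorted CD45+ and CD45- cells was sequenced from 10 tumours. The authors built libraries with the SENSE mRNA-Seq kit, trimmed the reads, estimated transcript abundance with Salmon (1.3.0 in the submitters' processing notes) and used tximport for gene totals. The table the authors deposited holds estimated counts, not normalised, of 52783 genes. GRCh38, a human build, is named in the methods whereas the identifiers are of mouse, so the only coordinates given are those of the RefSeq promoters.

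Of the identifiers, 51492 matched a mouse symbol. Estimated counts were rounded. Groups were compared in R 4.3.3 with edgeR 4.0.16 (quasi-likelihood test, TMM, default filter by group, robust fit, Benjamini-Hochberg adjustment over all genes tested), using only the groups compared. The SE was derived from the test of this fit, as the absolute log2 difference divided by the square root of the F statistic. Confidence intervals (95%) were built from that SE with a t quantile. Levels used DESeq2 1.42.0 size factors, and TPM used the longest protein-coding transcript of each gene. The fits were tested on simulated counts.

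The members and the gene lists were chosen with earlier results of these data known. Named are the 9 genes, Ptprc, per pathway list and comparison the 2 called genes with the largest log2 difference (mean of at least 10), summed marker lists, and for Vcam1, Selp and Itgb2 the 3 nearest profiles of log2(normalised count + 1) among genes with a mean of at least 50. Other genes named, among them Itga4, Itgb1, Pecam1, Cdh5, Pf4, Eomes and chromosomal neighbours, were picked after their values were seen. A gene withheld from the text is not reported here. Alternatives were RLE factors, total counts, DESeq2, other filters, all libraries in a fit, a replicate block, exact permutation tests, leaving out animals 5 and 6 of 66cl4, and leaving out each library. The gates of one animal are paired: their deviations from the group means correlated at 0.0294 to 0.238 for 66cl4 animals and at -0.0187 to 0.430 for 67NR animals. Between tumours only the number is shared. Figures were drawn with matplotlib 3.10.9.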

Additional observations from a re-analysis of the deposited data

Results flagged for a closer look

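Among 36 sets of 5 libraries (9 genes in 4 groups), 3 held a library that stood apart by Dixon's criterion, and chance gives about 1.8. Icam2 in the 67NR CD45- library of animal 4 was 174 normalised counts, with 56.2 to 86.0 in the others. Sele in the 66cl4 CD45- library of animal 7 was 4.99, with 0 to 1.25 in the others, a matter of 5 counts. Itgam in the 67NR CD45+ library of animal 7 was 10947, with 7302 to 8137 in the others.

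In 2 cases every library moved one way in one setting and the opposite way in the other, and the difference itself was not tested. The CD45+ level of Vcam1 was 0.389 of the CD45- level in 66cl4 and 3.69 of it in 67NR tumours. The 66cl4 level of Selp was 5.34 of the 67NR level in CD45+ cells and 0.173 of it in CD45- cells.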

How the results depend on the processing

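The counts of called genes in both directions together, over the 9 genes, all lists pooled and all genes, stayed within 1.5 times their values under every alternative run. By direction, genes called higher in CD45+ cells of 66cl4 went from 3562 to 5483 without a filter and 5363 by DESeq2, and genes called lower in 66cl4 CD45+ cells from 1001 to 1525 with all 20 libraries in the fit. Counts of single lists moved more in places: platelet and neutrophil markers called lower in 66cl4 CD45- cells went from 2 to 4 each by DESeq2. Among single members the following changed. Itgam between CD45- groups became called without animal 5 of 66cl4 (-1.68, edgeR adjusted p = 0.0488). Selplg in CD45+ cells ran from -0.23 to 0.20 as libraries were left out, with the positive value without animal 7 of 67NR. Selp between the gates of 67NR, called in no setting, ran from -0.25 (without CD45+ animal 1) through -0.056 and -0.024 (without CD45- animals 7 and 6) to 0.22 as libraries were left out, and was -0.029 with total counts as library sizes. That scaling moved the median of all genes between the gates of 66cl4 from 0.0031 to -0.098. Sele, under the filter, was counted in the 66cl4 gate comparison by DESeq2, without a filter, by exact permutation tests and without single libraries (CD45+ animal 7 or any CD45- animal), which made 9 genes called instead of 8. Exact permutation tests, unadjusted, unpaired and with no fold threshold, passed 7 genes between CD45- groups, 9 between the gates of 66cl4 and 8 between those of 67NR. All gate counts over the 9 genes in this section take in Vcam1 and Selp. Their gate comparisons are a description, so these counts are no test of them.

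With the replicate number as a block, 5 of the 9 genes were called between CD45- groups, as without it. Between the gates 8 (66cl4) and 7 (67NR) passed the same thresholds, as without it, with Vcam1 and Selp counted as a description only. Vcam1 was -3.70, -0.61, -1.42 and 1.83 in the CD45+, CD45-, 66cl4 gate and 67NR gate comparisons. Its CD45- difference stayed under the fold threshold. Sele, and Icam2, Itgal, Selp and Selplg in 66cl4 CD45- cells, rest on few counts per library.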
